A study of Arabidopsis thaliana with 4 samples.

Results

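The genes described here are 26 Arabidopsis thaliana genes whose signal was higher after high light in wild-type plants and which stood at no more than 0.5 of that level in high-light erf6-1 plants. The members were chosen by measured values of 3 of the 4 arrays: a wild-type high-light signal of 588 or more, a wild-type ratio of high light to untreated of 2 or more, and an erf6-1 to wild-type ratio after high light of 0.5 or less, with signals under 100 raised to 100 (the floor) for the ratios. Of 22746 probe sets, 13436 were tied to 1 current gene, and 13263 of these stayed in after plastid genes and several families and single genes were left out by name. The wild type had 478 of them past the first 2 conditions, called light-raised genes below, and 26 of the 478 (5.44%) met the third. A further 7 genes passed the same thresholds but belong to what was left out, among them the defensin genes PDF1.2 and PDF1.2b, OSM34 and the glycosyltransferase gene UGT76B1.

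The study hybridised total RNA of 3-week-old seedlings to Affymetrix arrays to look for genes regulated by ERF6, a transcription factor of the ethylene response factor family. The 4 groups were erf6-1 plants after 2 h at 2000 µmol m-2 s-1, Col-0 wild-type plants after the same treatment, untreated erf6-1 plants and untreated wild-type plants, and all carried the Col-0 background. With a single array (n = 1) in each group there is no spread between replicates to judge a difference by, and no p-value is given. The labels name erf6-1 as the only mutant line and do not say what the mutation does, 1 of their fields speaks of embryos and goes against the plant material, and ERF6 itself was not analysed here. The signals are MAS5 intensities, scaled per array by the authors, with medians of 207 in erf6-1 and 208 in the wild type after high light, and of 321 in erf6-1 and 279 in the wild type untreated. Fewer cells of a type and less RNA per cell cannot be told apart in whole seedlings.

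Ethylene response factors are DNA-binding proteins best known for binding the GCC box in promoters of defence genes, and several of them are induced by reactive oxygen species. High light drives photosynthesis beyond its capacity, and the hydrogen peroxide and singlet oxygen that form in the chloroplast change the expression of many nuclear genes. Hydrogen peroxide is also used outside the cell, where class III peroxidases, secreted haem enzymes, oxidise phenolic compounds and cross-link the cell wall. Most of the 26 genes carry only a locus name in the gene table. The protein families given for them are general knowledge of the Arabidopsis annotation, and the groups below were formed after the values had been seen.

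**Figure D1:**
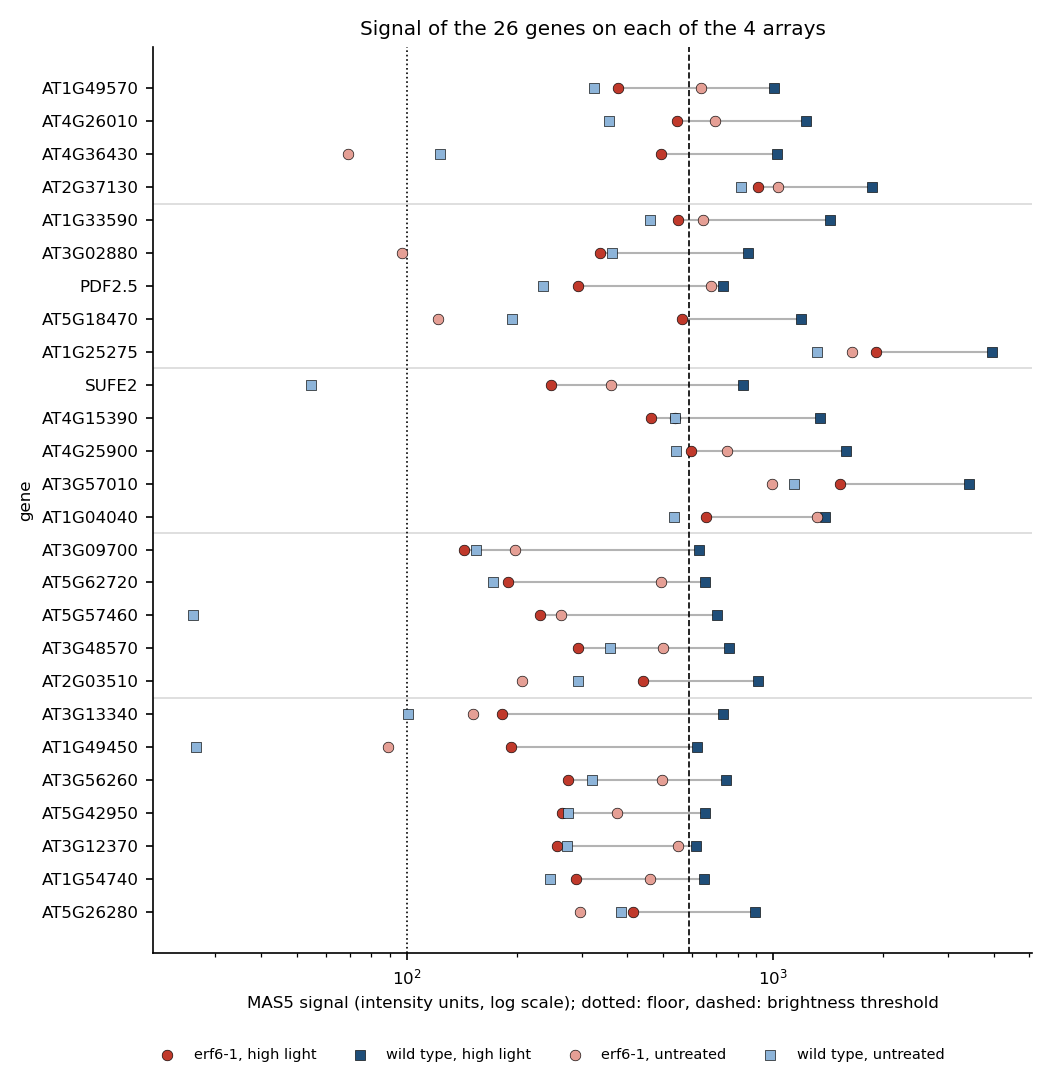
MAS5 signal (intensity units, log axis) of each of the 26 genes on the 4 arrays, 1 point per array, with a line between both high-light arrays. Thin horizontal lines separate, from the top, peroxidases, defence-type and cell-surface proteins, enzymes, membrane and protein-handling proteins, and the remaining genes. The high-light wild type is the rightmost point for all 26, while the erf6-1 high-light points lie between 143 and 1915.

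The largest family among the 26 was that of the class III peroxidases, with 4 members. AT1G49570 had a signal of 377 in erf6-1 and 1005 in the wild type after high light, beside 634.5 in erf6-1 and 324 in the wild type untreated. AT4G26010 had 547 in erf6-1 and 1228 in the wild type after high light, with 694 in erf6-1 and 357 in the wild type untreated. In both, erf6-1 was below the wild type after high light and above it before. AT2G37130 had 908 in erf6-1 and 1861 in the wild type after high light, against 1034 in erf6-1 and 815 in the wild type untreated. AT4G36430 followed another course, since it was higher after high light in both genotypes. Its signal was 495 in high-light erf6-1, where untreated erf6-1 had 69.1, and 1026 in the high-light wild type, where the untreated wild type had 123. That is at least 4.95-fold higher with light in erf6-1, a bound because the untreated signal was under the floor, and 8.35-fold higher in the wild type. After high light the 4 peroxidases had log2 differences of -1.41 to -1.03 between erf6-1 and the wild type.

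Since peroxidases led the list, the rest of the family was examined after these values had been seen. Of 73 class III peroxidase genes, 55 had a named probe set and 42 passed the brightness filter, which asks that the highest of the 4 signals reach the pooled median of 248.6. After high light, 11 of the 42 were at least 2-fold lower in erf6-1, where 6.99% of all 17173 probe sets past the filter were. PRX52 was the only 1 at least 2-fold higher, where 6.61% were, and its difference is a bound, with 88 in the high-light wild type. The 4 members, which the rule made lower, are among the 11. The lowest were AT5G19890 at a log2 difference of -2.51, AT5G14130 at -1.64 and Prx37 at -1.50, a bound. AT5G19890 passes the thresholds too and is 1 of the 7 genes left out by name. High light in the wild type gave 17 of the 42 a 2-fold or larger increase, against 14.3% of all probe sets past the filter, and 4 a 2-fold or larger decrease, against 23.9%. The 17 include the 4 members, of which the rule required this increase, and AT5G19890, which passes the same threshold. Over all 42 after high light, 27 were lower in erf6-1 and 11 higher, with a median log2 difference of -0.34. Of the 17173 probe sets past the filter, 7533 were lower and 7710 higher. The direction was uniform only among the brighter peroxidases: all 16 with a wild-type high-light signal of 588 or more were lower in erf6-1, with a median of -0.79. Each of the 11 higher ones was dimmer than that in the high-light wild type. That array is also the reference of the ratio, so the cut itself favours genes that were lower in erf6-1. AT2G22420, among the 11, had 613 in erf6-1 and 555 in the wild type after high light. Of all 2451 single-gene probe sets as bright as the 16, 1329 (54.2%) were lower, with a median of -0.04. The 16 include the 4 members and AT5G19890, which had to be lower; without these 5 the count was 11 of 11 with a median of -0.57. Without the same 5 genes, 12 of 13 were lower after quantile normalisation, against 55.2% of all probe sets that bright, and 13 of 16 with the arrays set to equal medians, against 53.5%. Choosing the bright ones by the mean of both high-light arrays, again without those 5, gave 7 of 7 lower on the deposited scale, 8 of 10 on quantile-normalised values and 12 of 15 with medians made equal, where 46.9%, 47.6% and 45.9% of all probe sets were lower. The median log2 differences of these peroxidases were -0.52, -0.26 and -0.36 on the same 3 scalings. AT4G33420, with 2194 in erf6-1 and 2250 in the wild type after high light, differed least among the bright ones that were light-raised.

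**Figure D2:**
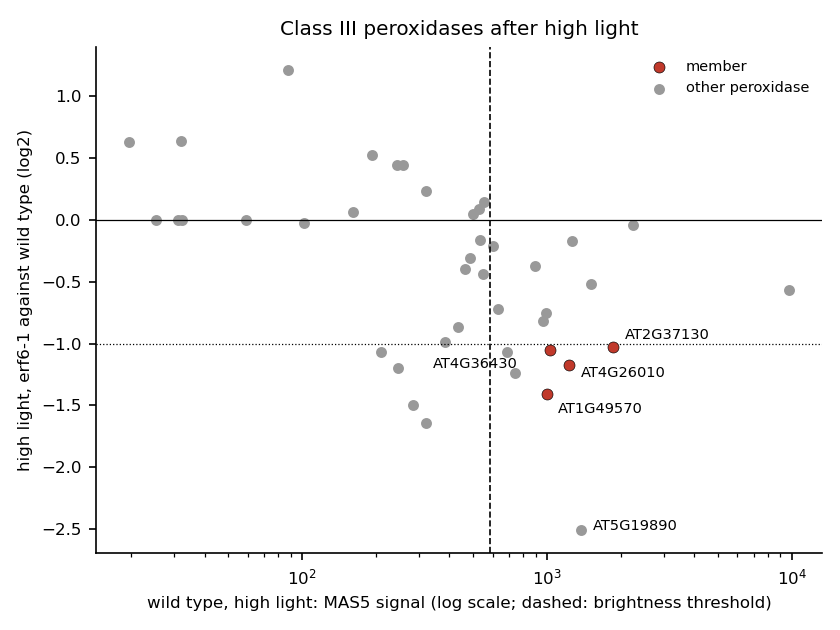
Log2 difference after high light, erf6-1 against wild type, of the 42 class III peroxidases past the brightness filter, plotted against the signal in the high-light wild type (log axis). The dashed line marks the brightness threshold of 588 and the dotted line a 2-fold lower signal; all 16 points right of the dashed line lie below 0, and the 4 members and AT5G19890 are named.

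Several peroxidases of this family are known from roots, so root markers are given beside them. Of 13 listed root genes 3 had a named probe set, and they summed to a signal of 18559 in erf6-1 and 16616 in the wild type after high light, and 22632 in erf6-1 and 29570 in the wild type untreated. PYK10, a root beta-glucosidase, makes up nearly all of that sum and had 18297 in erf6-1 and 15881 in the wild type after high light. The root-hair expansin genes went the other way after high light, EXPA7 with 160 in erf6-1 and 331 in the wild type and EXPA18 with 102 in erf6-1 and 403.5 in the wild type. The part of root tissue in the peroxidase values was not tested. RCA, the leaf gene for Rubisco activase and the only 1 of 6 mesophyll markers with a named probe set, had 32887 in erf6-1 and 37117 in the wild type after high light. None of the listed seed, flower or vascular markers had a named probe set. The guard-cell genes FMA and AT1G22690 had a summed high-light signal of 1032 for erf6-1, against 1253 for the wild type. AT1G22690 makes up most of both sums and was lower in erf6-1, at 866.5 against 1201.5 for the wild type. FMA was higher in erf6-1, at 165.4 against a wild-type signal of 51.1, under the floor. Their log2 differences were -0.47 for AT1G22690 and 0.73, a bound, for FMA.

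A second group of 5 genes encodes defence-type and cell-surface proteins. PDF2.5, a plant defensin, had a signal of 292.5 in erf6-1 and 731 in the wild type after high light, with 679 in erf6-1 and 235 in the wild type untreated. Light went with a 2.32-fold lower signal in erf6-1 and a 3.10-fold higher one in the wild type, and the untreated erf6-1 level was close to that of the high-light wild type. AT1G25275, a thionin-like protein, had 1915 in erf6-1 and 3962 in the wild type after high light, and 1641 in erf6-1 and 1316 in the wild type untreated. AT5G18470 encodes a curculin-like lectin that belongs to the mannose-binding type. It was among the genes that erf6-1 did raise, with 565 in high-light erf6-1 against 122 in untreated erf6-1, a 4.65-fold difference, and 1196 in the high-light wild type against 193 in the untreated wild type, a 6.19-fold one. AT1G33590, a leucine-rich repeat protein, had 550 in erf6-1 and 1432 in the wild type after high light, beside 643.5 in erf6-1 and 462 in the wild type untreated.

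AT3G02880, a leucine-rich repeat receptor-like kinase, is the exception to the description of the whole group. It had a signal of 338 in erf6-1 and 854 in the wild type after high light, and 97.2 in erf6-1 and 364 in the wild type untreated. The light response was at least 3.38-fold in erf6-1 and 2.34-fold in the wild type, so this gene was lower in erf6-1 both before and after high light and its response was not smaller. For the other 25 genes the difference of the responses, erf6-1 minus wild type, was negative.

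The 5 enzymes outside the peroxidases include SUFE2, an activator of the cysteine desulfurase that supplies sulfur for iron-sulfur clusters in plastids. SUFE2 had a signal of 248 in erf6-1 and 827 in the wild type after high light, with 362 in untreated erf6-1 and 54.7, under the floor, in the untreated wild type. It was 1.46-fold lower with light in erf6-1 and at least 8.27-fold higher with light in the wild type, and its difference of responses of -3.59 was the lowest of the 26, itself resting on a bound. AT4G15390, an acyltransferase of the HXXXD type, had nearly equal untreated signals, 538 in erf6-1 and 541 in the wild type. After high light it had 465 in erf6-1 and 1341 in the wild type, so that the genotypes parted only on the high-light arrays. AT4G25900, a galactose mutarotase-like protein, had 596.5 in erf6-1 and 1583 in the wild type after high light, beside 749 in erf6-1 and 543 in the wild type untreated. AT3G57010, of the strictosidine synthase-like family, was higher with light in both genotypes, with 1524 after high light against 993 untreated in erf6-1 and 3438 after high light against 1140 untreated in the wild type. AT1G04040, an acid phosphatase of the haloacid dehalogenase superfamily, had 655 in erf6-1 and 1385 in the wild type after high light. Its untreated signals were 1320 in erf6-1 and 536 in the wild type, so untreated erf6-1 was near the level of the high-light wild type.

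Membrane, transport and protein-handling genes held the lowest ratio of all. AT3G09700, a DnaJ-domain protein, had a signal of 143 in erf6-1 and 626 in the wild type after high light, 4.37-fold lower, with 197 in erf6-1 and 154 in the wild type untreated. AT5G62720, an integral membrane protein of the HPP family, had 189 in erf6-1 and 652 in the wild type after high light, and 496 in erf6-1 and 172 in the wild type untreated. The genotypes thus changed places: erf6-1 was 2.88-fold higher untreated and 3.45-fold lower after high light. AT5G57460, a muniscin-type protein of endocytosis, had 231 in erf6-1 and 704 in the wild type after high light, with 263 in untreated erf6-1 and 26.1, under the floor, in the untreated wild type. AT2G03510, of the band 7 (SPFH) membrane protein family, had 441 in high-light erf6-1 against 206 in untreated erf6-1, a 2.14-fold difference, and 910 in the high-light wild type against 293.5 in the untreated wild type, a 3.10-fold one.

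AT3G48570, which encodes the small Sec61 gamma subunit of the channel for proteins entering the endoplasmic reticulum, was the only 1 of the 26 with a second named probe set, and the probe sets disagreed. The probe set that passed the thresholds had 294 in erf6-1 and 758 in the wild type after high light, with 501 in erf6-1 and 359 in the wild type untreated. The second had 993.5 in erf6-1 and 968 in the wild type after high light, with 955 in erf6-1 and 822 in the wild type untreated, and its log2 difference between the high-light arrays was 0.04. The gene is therefore counted among the 26 on 1 of its 2 measurements. Taking for each gene the brighter probe set removes it and leaves 25.

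The remaining 7 genes have varied or unknown roles. AT3G13340 and AT1G49450 both encode WD40-repeat proteins. AT3G13340 had 182 in erf6-1 and 730 in the wild type after high light, beside 152 in erf6-1 and 101 in the wild type untreated. AT1G49450 had 193 in erf6-1 and 618 in the wild type after high light, and was under the floor in both untreated arrays. In erf6-1 their log2 differences with light were 0.26 and, as a bound, 0.95. Both were at least 6-fold higher with light in the wild type, at 7.23-fold and, as a bound, 6.18-fold. AT5G42950, a GYF-domain protein, had 266 in erf6-1 and 653 in the wild type after high light, with 376 in erf6-1 and 275 in the wild type untreated. AT1G54740, a FAF-like protein, had 289 in erf6-1 and 648 in the wild type after high light, with 460 in erf6-1 and 245.5 in the wild type untreated. In both, erf6-1 was the higher genotype before light and the lower one after. AT3G12370, of the ribosomal protein L10 family, had 257 in erf6-1 and 617 in the wild type after high light, with 551 in erf6-1 and 274 in the wild type untreated. AT5G26280, a TRAF-like protein, had 415 in erf6-1 and 893 in the wild type after high light, with 296 in erf6-1 and 385 in the wild type untreated. AT3G56260, whose function is not known here, had 276 in erf6-1 and 745 in the wild type after high light, with 497 in erf6-1 and 321 in the wild type untreated.

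The values that chose the genes can be described but not used as evidence. After high light the 26 genes had log2 differences of -2.13 to -1.03 between erf6-1 and the wild type, with a median of -1.33, and the wild-type light response ran from 1.08 to 3.06 with a median of 1.61. The 452 other light-raised genes had a median wild-type response of 1.57. Signals in the high-light wild type ranged from 617 to 3962, and 15 of the 26 lay under 1000. Nearest to the ratio threshold inside were AT2G37130 with an erf6-1 to wild-type ratio of 0.488 and AT2G03510 with 0.485, and just outside were AT5G41770 with 0.509, AT1G05205 with 0.512 and LSM6A with 0.521. Nearest on the light response were AT3G48570 inside with a ratio of 2.11, and AT4G35750 outside with 1.98, AT5G54370 with 1.86 and PRA1.B1 with 1.66. DER2.2 was just outside on brightness, with a wild-type high-light signal of 579, where AT3G12370 inside had 617.

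Exchanging the genotypes in the same rule, so that genes had to be bright and light-raised in erf6-1 and at no more than 0.5 of that in the high-light wild type, gave 25 of 591 genes (4.23%). After the exclusions by name, the rule and its mirror image thus found nearly equal numbers between these high-light arrays. The rule's own count leaves out the 7 genes named for exclusion that passed its thresholds. How many such genes the mirror image leaves out was not counted, so the numbers without exclusions cannot be compared. With the arrays set to equal medians the rule found 45 genes, all 26 among them, and its mirror image 71. On quantile-normalised values the rule found 20, of which 18 were among the 26, and the mirror image 26. The 8 genes that drop out on quantile-normalised values fall short of 2-fold there, the nearest to 0 being AT2G03510 at -0.88, and include the peroxidases AT4G26010, AT4G36430 and AT2G37130.

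The light response within erf6-1 uses 1 array that the rule did not, the untreated erf6-1 array. In erf6-1, 17 of the 26 genes had a lower signal after high light than untreated and 9 a higher one, with a median log2 difference of -0.28 and a range of -1.39 to 2.31. Of all 17173 probe sets past the filter, 9657 were lower with light in erf6-1 and 6776 higher. At least 2-fold higher in high-light erf6-1 were 4 of the 26, AT4G36430, AT5G18470, AT3G02880 and AT2G03510, against 16.7% of all probe sets past the filter. At least 2-fold lower were 4, AT5G62720, PDF2.5, AT3G12370 and AT1G04040, against 29.8%. The median over all probe sets past the filter was -0.22, so the 26 genes together lay close to the whole array. Of the 452 other light-raised genes, 252 (55.8%) were at least 2-fold higher in high-light erf6-1 and 6 (1.33%) at least 2-fold lower, with a median of 1.17. The rule selects low values on the high-light erf6-1 array, so part of this gap follows from the choice of genes.

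How many of the 26 lay below their untreated level in erf6-1 depended on the scaling. The count of 17 on the deposited scale became 12 on quantile-normalised values and 8 with medians made equal. The medians moved with those of all probe sets past the filter, at 0.05 for the 26 and 0.00 for all after quantile normalisation and at 0.36 and 0.33 with equal medians. The other light-raised genes had medians of 1.13 and 1.80 on the same scalings. The difference of the responses was at least 2-fold lower, erf6-1 minus wild type, for 20 of the 26 on all 3 scalings, against 25.6% of all probe sets past the filter as deposited. Among the other light-raised genes, which share the wild-type light condition, it was at least 2-fold lower for 151 of 452 as deposited. The medians were -1.87 for the 26 and -0.58 for the 452. To choose the 26, the rule used 3 of the 4 arrays behind these numbers.

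**Figure D3:**
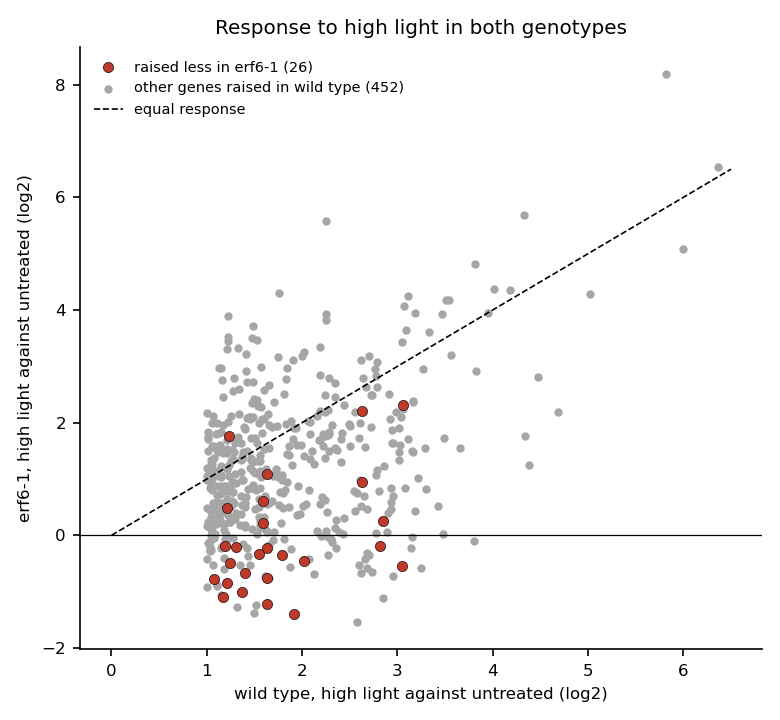
Log2 difference between high light and untreated in the wild type (horizontal axis) and in erf6-1 (vertical axis) for the 478 light-raised genes, 1 point per gene. The 26 genes, in red, lie between -1.39 and 2.31 on the vertical axis, 17 of them below 0, and the other 452, in grey, have a median of 1.17; the dashed line marks an equal response.

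Before high light, 18 of the 26 genes were higher in erf6-1 than in the wild type, 7 were lower and 1, AT1G49450, was under the floor on both arrays. Of all 17173 probe sets past the filter, 8637 were higher and 8155 lower. The median log2 difference of the 26 was 0.47. At least 2-fold higher in untreated erf6-1 were 6 of the 26, against 23.7% of all probe sets past the filter, namely SUFE2, PDF2.5, AT5G62720, AT5G57460, AT1G04040 and AT3G12370. AT3G02880 alone was at least 2-fold lower, at a log2 difference of -1.87, a bound, against 19.6%. Low untreated wild-type values are favoured by the rule, and the other light-raised genes share that condition. Among these 452, 308 were higher and 134 lower in untreated erf6-1. Their median was 0.49, with 141 (31.2%) higher and 32 (7.08%) lower by 2-fold or more. The higher untreated level in erf6-1 was thus as large in the other light-raised genes as in the 26.

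**Figure D4:**
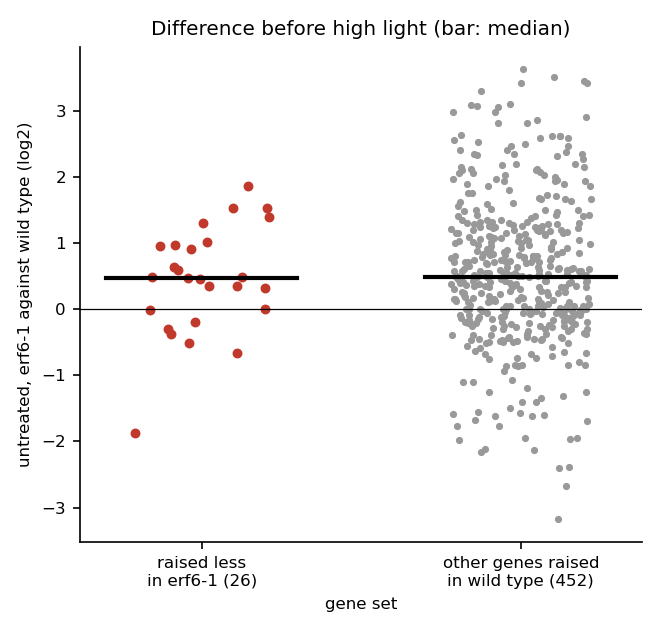
Log2 difference between untreated erf6-1 and untreated wild type for the 26 genes (red, left) and the 452 other light-raised genes (grey, right), 1 point per gene with a small sideways shift so that points can be seen, and a bar at the median. The medians are 0.47 and 0.49.

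Set against the untreated erf6-1 array, which the rule did not use, the high-light wild type had the higher signal for all 26 genes, and for 404 of the 452 other light-raised genes (89.4%). The high-light wild type was thus the highest of the 4 arrays for each of the 26, partly by the rule. The lowest was high-light erf6-1 for 6, untreated erf6-1 for 6 and the untreated wild type for 14. Those 6 with high-light erf6-1 lowest were AT3G09700, AT4G15390, AT3G56260, AT3G48570, AT5G42950 and AT3G12370. The 26 genes were spread over all nuclear chromosomes, 7 on chromosome 1, 2 on chromosome 2, 7 on chromosome 3, 4 on chromosome 4 and 6 on chromosome 5. No 2 of them were neighbours: the closest pairs, AT1G49450 with AT1G49570 and AT4G25900 with AT4G26010, had 10 protein-coding genes between them.

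Few genes known for these pathways could be measured beside the 26. Of 96 genes in 8 lists (ethylene signalling and ERF factors, jasmonate, defence, high-light and reactive oxygen response, heat shock, flavonoid and anthocyanin, clock, touch and wounding), 11 had a named probe set, and none was among the 26. Measured were 1 of 19 ethylene and ERF genes, 1 of 13 defence genes and 1 of 15 high-light and reactive oxygen genes. The defence-type genes PDF1.2, PDF1.2b and OSM34 passed the rule's thresholds but were left out by name, and they were not on these lists. The lists therefore cannot show how these pathways as a whole differed. After high light 1 of the 11 was at least 2-fold lower in erf6-1, against 6.99% of all probe sets past the filter. It was AT4G14090, an anthocyanin glucosyltransferase, at a log2 difference of -1.23, a bound. The defence regulator WRKY53 was the only 1 of the 11 at least 2-fold higher, against 6.61%. Its log2 difference of 1.55 is also a bound, because the high-light wild type had 99.7, under the floor. No jasmonate gene had a named probe set. EIN3, the central transcription factor of ethylene signalling, had 843.5 in erf6-1 and 688 in the wild type after high light, a log2 difference of 0.29. Light-raised genes of other kinds were close between the genotypes, with log2 differences of 0.25 for the small heat shock protein AT1G52560, -0.37 for the zinc finger repressor STZ and -0.18 for DFR, an enzyme of anthocyanin synthesis. At 2-fold lower in erf6-1 these genes would have been among the 26. On that side their closeness therefore follows from the rule. The clock gene GI was at -0.22.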

How the data were processed

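Signals of 4 Affymetrix arrays (1 per group, groups from the sample titles) were taken as deposited: linear intensity values made by the authors with MAS5, per the submitters' processing notes. For MAS5, no version is given in the sources used here. Probe sets were tied to genes through the platform annotation (14016 listed) and the RefSeq gene table. Signals were raised to the floor of 100 and put on the log2 scale. With 1 array below that floor a fold is only a bound, and with both below it none is given. Called means at least 2-fold, counted over the 17173 probe sets whose highest array reached the pooled median. The members, lists and comparisons were chosen with earlier results of these data known. All 26 members are named, and the genes nearest outside the thresholds. Alternatives were other scalings, floors, a pseudocount, no filter, 1 probe set per gene and other thresholds. The planned promoter motif search was not made, since promoter sequences were not used here. The calculation, in Python 3.11.15 with pandas 2.3.3, was tested on simulated data. The number of arrays limits the precision.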

Additional observations from a re-analysis of the deposited data

Results flagged for a closer look

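For 4 of the 26 genes the arrays moved in opposite directions with light, down by 2-fold or more in erf6-1 and up by 2-fold or more in the wild type. These were AT5G62720, with a log2 difference of -1.39 in erf6-1 and 1.92 in the wild type, PDF2.5, with -1.21 in erf6-1 and 1.63 in the wild type, AT3G12370, with -1.10 in erf6-1 and 1.17 in the wild type, and AT1G04040, with -1.01 in erf6-1 and 1.37 in the wild type. The rule required the rise in the wild type of all 26. A fall of 2-fold or more in erf6-1 was found for 29.8% of all probe sets past the filter. Among the 452 other light-raised genes it was found for 1.33%. With single arrays the difference between the genotypes was not tested, and it rests in part on arrays that chose the genes. With the arrays set to equal medians none of the 26 went down by 2-fold in erf6-1, and after quantile normalisation 1 did.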

How the results depend on the processing

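No paired analysis was possible because each group had 1 array, and no replicate could be left out. The rule found 45 genes with equal medians, 17 with log2(signal + 100), 118 with ratio thresholds of 1.5-fold and 6 with 3-fold, and 18 met it on all 3 scalings. Its mirror image found 71 with equal medians and 14 with log2(signal + 100). Members below their untreated level in erf6-1 numbered 8 with equal medians. Of the listed pathway genes, none was at least 2-fold lower or higher after high light with a floor of 200 or with log2(signal + 100), counts of 0 in both directions, and 2 were lower with a floor of 50. The other counts stayed within 1.5 times of the reported ones under the alternatives run, apart from the peroxidases bright by the mean of both high-light arrays, a choice made after seeing the data, which numbered 20 with equal medians and 12 as deposited, and the 2-fold counts within small groups: members at least 2-fold higher in high-light erf6-1 numbered 3 to 7 over the alternatives, those at least 2-fold lower 0 to 4, and those at least 2-fold lower in untreated erf6-1 0 or 1. No member's called difference changed sign under any alternative. Without AT3G48570, a choice made after seeing the data, 16 of 25 members lay below their untreated level in erf6-1. Dim signals limit the untreated values, since 3 members were under the floor in untreated erf6-1 and 3 in the untreated wild type.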
